A study of Sus scrofa with 9 samples.

Results

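A deposited miRNA count table from pig (Sus scrofa) gametes and early embryos listed 1313 small RNA names, and 281 of them (21.4%) began with PC-3p. All names with that prefix were taken, by name alone, and the rows of a repeated name were summed. The meaning of PC and of the numbers after it was not given in the sources used here. In miRNA tables of this kind PC commonly stands for a predicted candidate, a read cluster with a hairpin predicted around it and no match to a known miRNA, and 3p for the 3′ arm of that hairpin. A further 222 names began with PC-5p and 810 carried the prefix of a species. Small RNA was sequenced in 3 groups, porcine MII oocytes, PN embryos and sperm, each with 3 libraries and each labelled as not treated. The labels gave no breed, animal or age. MII oocytes are mature eggs held at the second meiotic metaphase. PN embryos were fertilized in vitro and are still 1 cell, with the parental genomes in separate pronuclei, and the sperm were purified mature cells.

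A miRNA is cut from a hairpin transcript, first in the nucleus and then by Dicer in the cytoplasm, and either arm of the hairpin can become the mature strand. The strand that is kept in an Argonaute protein pairs with mRNAs and lowers their translation or stability, and the other strand is mostly degraded. Mature sperm are nearly silent in transcription and carry small RNAs made earlier, while eggs and embryos before genome activation rely on RNA stored during oocyte growth. No function is known here for any PC-3p name. Their sequences were not analysed, and fragments of other RNAs among them cannot be told apart from miRNAs.

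The MII oocyte libraries totalled 289183 to 381674 counts, the PN embryo libraries 422630 to 771001 and the sperm libraries 1640492 to 2455102, without overlap between groups, so that depth and group cannot be told apart. Levels are given as CPM, the count divided by the total of its library and scaled to 1000000. In these totals ssc-miR-205_R+1 alone was at a mean of 473620 CPM in the MII oocytes, 453732 CPM in the PN embryos and 60.5 CPM in sperm. The CPM and shares of all other names are relative to totals that include it, and its part in differences from sperm was not tested. A listed value of 5 counts corresponded to 13.1 to 17.3 CPM in the MII oocytes, 6.49 to 11.8 CPM in the PN embryos and 2.04 to 3.05 CPM in sperm. The summed level of miRNAs usually high in sperm was 150757 to 152999 CPM in sperm, 2036 to 2099 CPM in the MII oocytes and 2250 to 2455 CPM in the PN embryos. The list for the oocyte and early embryo reached 1089 to 1286 CPM in the MII oocytes, with miR-302 at 0, and 1106 to 1267 CPM in the PN embryos, and was at 0 in sperm. In the order of MII oocytes, PN embryos and sperm, follicle cell miRNAs summed to 851 to 1360, 1074 to 1172 and 703 to 772 CPM, and blood cell miRNAs to 166 to 314, 837 to 875 and 259 to 369 CPM. Nothing in the labels said that libraries came from separate animals or cultures, so p-values measure the spread between these libraries, which may be technical. In bulk samples like these, fewer cells with a small RNA and less of it per cell cannot be told apart.

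Most PC-3p names were rare, and many shared their counts with another name. The median name had 11 counts over the 9 libraries, against 20 for PC-5p names and 139.5 for names with a species prefix. The quartiles were 6 and 33 counts, 135 names had at most 10 counts, 39 had at least 100 and 8 had at least 1000. The 281 names carried 177 distinct rows of counts. Of the names, 122 shared their row with another PC-3p name, all of them with 10 counts or fewer in total, and together they held 1.17% of PC-3p counts. The other 159 names had a row found under no other PC-3p name. Of the 281 names, 123 had the same row as a name outside the set, 8 of them with more than 10 counts. PC-3p-70217_44 repeated PC-5p-70217_44 (42 counts), the only number that occurred under both arms. PC-3p-185458_8 repeated ssc-miR-671-3p (15 counts), and PC-3p-169955_11 repeated cgr-miR-1260_1ss13CT (17 counts). At such low totals an equal row can arise from separate reads, and whether the reads were the same was not tested.

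Low values clustered at 5 counts. Of 659 PC-3p values above 0, 128 (19.4%) equalled 5 and 4 lay below it. The share at 5 was 15.6% for PC-5p names and 5.35% for names with a species prefix. A 0 was therefore treated as anything up to 5 counts, and ratios to a group listed at 0 are given as lower limits against 5 counts per library. Of the PC-3p names, 135 (48.0%) were listed in 1 library, 61 of them at exactly 5 counts. The share in 1 library was 38.7% of PC-5p names and 12.1% of names with a species prefix. In all 9 libraries, 7 PC-3p names (2.49%) were listed, against 1.35% of PC-5p names and 27.2% of names with a species prefix.

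The last number in a PC-3p name followed its abundance. It equalled the counts summed over the 9 libraries for 180 of 281 names (64.1%), lay below that sum for 98 and above it for 3. The match was usual among rare names, 151 of 182 with fewer than 20 counts, and less so among the rest, 29 of 99. The largest excess was that of PC-3p-3013_1576, with 7916 counts, 5.02 times the number in its name. As a description across the 281 names, the Spearman rho between the last number and the counts was 0.971, and between the first and the last number it was -0.991. The names PC-3p-3013_1576 and PC-3p-3016_1576 end in the same number but had different counts and opposite distributions over the groups, so the last number alone does not identify a small RNA.

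**Figure D1:**
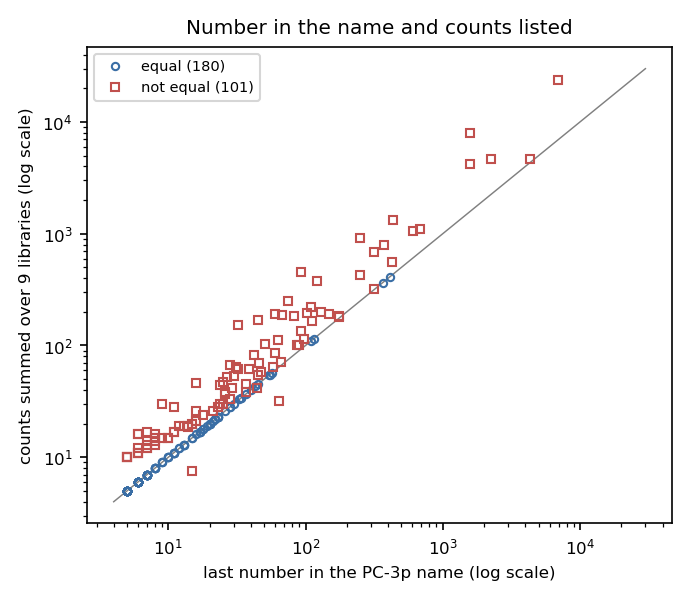
Each point is 1 of the 281 PC-3p names, with the last number of its name on the x axis and its counts summed over 9 libraries on the y axis, both on log scales, and the grey line marks equality. The 180 names on the line are mostly rare, and 98 of the other 101 lie above it.

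PC-3p names held a small and similar share of the counts in each group. The share was 0.735%, 0.660% and 0.659% in MII oocyte libraries 1, 2 and 3, 0.783%, 0.865% and 0.824% in PN embryos, and 0.639%, 0.690% and 0.664% in sperm. The 3 PN embryo libraries lay above all others, and the MII oocyte and sperm libraries overlapped. The mean was 0.685% ± 0.0438 in MII oocytes, 0.824% ± 0.0410 in PN embryos and 0.664% ± 0.0254 in sperm (SD, n = 3 each). PN embryos were 0.139 percentage points above MII oocytes and sperm 0.160 points below PN embryos (two-sided exact permutation test, p = 0.1 for each, adjusted to 0.15 over 3 comparisons). With 3 libraries against 3 this test cannot go below 0.1. Sperm and MII oocytes differed by -0.0204 points (exact permutation p = 0.7), and the difference was 0.00486 points without MII oocyte library 1. PC-3p-3013_1576 and PC-3p-835_6880 were the leading names of the groups. Without them the shares were 0.402% to 0.465% in MII oocytes, 0.496% to 0.579% in PN embryos and 0.234% to 0.279% in sperm. All 3 sperm libraries then lay below every MII oocyte library. The 2 names were picked as the most abundant in these data. They held 59.5% to 63.3% of PC-3p counts in sperm and 36.7% to 39.1% in MII oocytes. The lower remainder in sperm follows from that choice.

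Relative to PC-5p names, the counts of PC-3p names were higher in sperm than in either other group. The ratio of PC-3p to PC-5p counts was 1.66 to 1.87 in MII oocytes, 1.73 to 1.90 in PN embryos and 3.53 to 3.64 in sperm. Sperm lay above the other groups without overlap, by 1.01 on the log2 scale over MII oocytes and 0.97 over PN embryos (two-sided exact permutation test, p = 0.1 for each, adjusted 0.15), while MII oocytes and PN embryos overlapped (difference 0.04, exact permutation p = 0.6). PC-5p names made up 0.366% to 0.397% of counts in MII oocytes, 0.423% to 0.477% in PN embryos and 0.181% to 0.192% in sperm. The PC-3p and PC-5p shares both enter the ratio, and which of them its height in sperm reflects was not tested. The values that follow leave out leading PC-3p names and keep every PC-5p name. Without the leading names PC-3p-3013_1576 and PC-3p-835_6880 the ratio was 1.02 to 1.18 in MII oocytes, 1.12 to 1.27 in PN embryos and 1.29 to 1.46 in sperm, and the log2 differences of sperm shrank to 0.35 and 0.24.

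**Figure D2:**
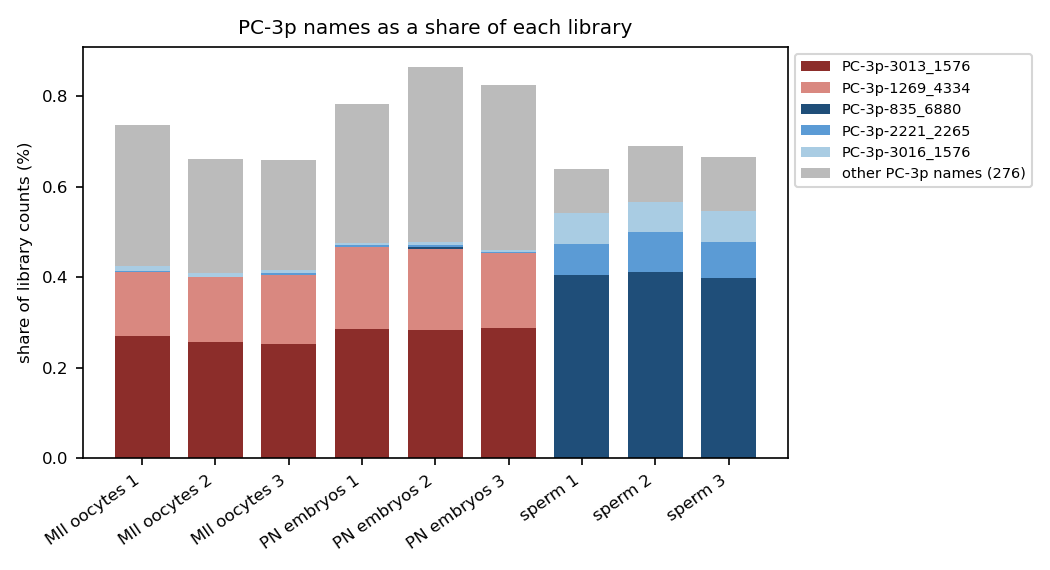
Stacked bars give the share of library counts (%, y axis, from 0) held by PC-3p names in each of the 9 libraries (x axis), split into 5 abundant names and the remaining 276. PC-3p-3013_1576 and PC-3p-1269_4334 fill most of each MII oocyte and PN embryo bar and PC-3p-835_6880 most of each sperm bar.

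The PC-3p counts were concentrated in few names, most strongly in sperm. PC-3p-3013_1576 alone made up 36.7% to 38.8% of PC-3p counts in MII oocytes and 32.7% to 36.6% in PN embryos, and PC-3p-835_6880 made up 59.5% to 63.3% in sperm. Together with the next name, the leading name held 56.0% to 61.3%, 53.5% to 59.6% and 71.8% to 74.2%. To reach 90% of the PC-3p counts took 14 to 22 names in MII oocytes, 26 to 38 in PN embryos and 6 or 7 in sperm. Among all names of the table, PC-3p-3013_1576 ranked 37 in both MII oocytes and PN embryos, and PC-3p-835_6880 ranked 44 in sperm.

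More PC-3p names were listed in PN embryos than in the other groups. At least 1 library listed 78 names in MII oocytes, 197 in PN embryos and 82 in sperm, and every library of the group listed 26, 45 and 47. Single libraries listed 41 to 59 in MII oocytes, 71, 123 and 128 in PN embryos and 62 to 66 in sperm. PC-3p names were 9.81% to 11.6% of all names listed in an MII oocyte library, 12.8% to 17.8% in a PN embryo library and 8.94% to 9.54% in a sperm library. The order of the groups depended on the level asked for. With at least 10 counts in 1 library or more, 33, 69 and 59 names were listed. At 17.3 CPM or more, the level of 5 counts in the shallowest library, there were 61, 52 and 20 in at least 1 library. In every library of the group, 22, 30 and 17 names reached that level.

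By the groups in which they appeared, the 281 names fell into 6 sets. The same split was not made for all names of the table. PN embryos alone listed 133 names, 102 of them in 1 library, with a median of 6 counts, and these held 4.81% to 8.83% of the PC-3p counts of a PN embryo library. Sperm alone listed 63 names, 34 of them in all 3 libraries, and the 63 held 9.65% to 12.2% of the PC-3p counts of sperm. Listing reached lower levels in sperm, where 5 counts were 2.04 to 3.05 CPM, against 13.1 to 17.3 CPM in MII oocytes. A name at a level such as the 8.01 CPM of PC-3p-103562_25 in sperm could thus go unlisted in eggs. MII oocytes alone listed 21 names, 20 of them in 1 library, and none with more than 11 counts. MII oocytes and PN embryos shared 45 names that sperm did not list, and 16 of these were in all 6 libraries. These 45 names held 58.8% to 60.3% of the PC-3p counts of MII oocytes and 53.7% to 56.2% of those of PN embryos. Another 12 names were listed in all groups and held 37.5% to 39.9%, 35.2% to 38.7% and 87.0% to 89.4% of the PC-3p counts of MII oocytes, PN embryos and sperm.

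The study looked for RNAs present in sperm and again after fertilization but absent from the egg. PN embryos and sperm shared 7 PC-3p names that MII oocytes did not list, which held 0.333% to 0.566% of the PC-3p counts of PN embryos and 0.745% to 1.04% of those of sperm. None of the 7 was in every library of both groups. These names were picked out after their values were seen. PC-3p-54413_60 had 66, 47 and 73 counts in sperm and 0, 6 and 0 in PN embryos, and PC-3p-90923_31 had 7, 20 and 24 in sperm and 5, 0 and 8 in PN embryos. PC-3p-87117_33 ran the other way, with 6, 11 and 10 counts in PN embryos and 6, 0 and 0 in sperm. The counts in PN embryos were thus close to the lowest that the table lists. The highest mean among the 7 in PN embryos was 14.3 CPM, for PC-3p-87117_33. In MII oocytes 5 counts were 13.1 to 17.3 CPM, so absence from the egg cannot be read from these names.

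**Figure D3:**
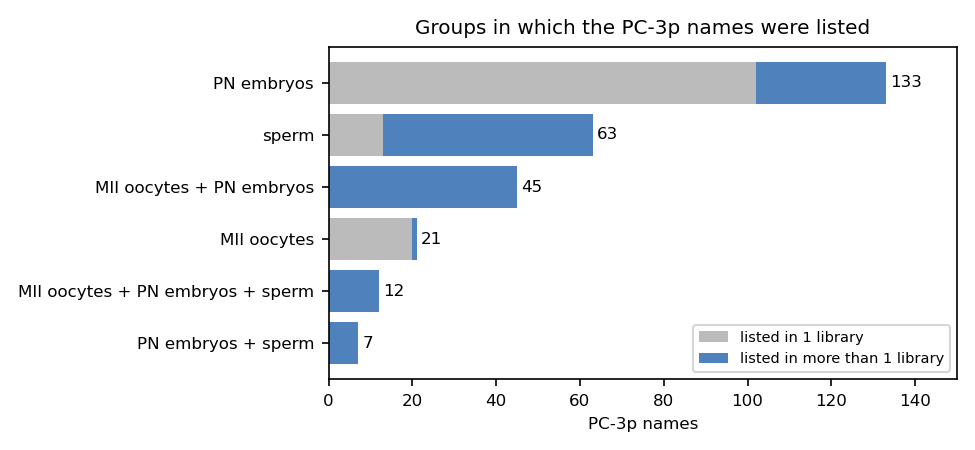
Bars give the number of PC-3p names (x axis) for each combination of groups that listed them (y axis), split by whether the name was in 1 library or in more. Of the 133 names seen in PN embryos alone, 102 were in 1 library, against 13 of the 63 seen in sperm alone.

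The 2 most abundant PC-3p RNAs of the egg were also those of the 1-cell embryo. PC-3p-3013_1576 was at 2701, 2563 and 2528 CPM in the MII oocytes, 2863, 2826 and 2869 CPM in the PN embryos and 0 in every sperm library. The MII oocyte and PN embryo libraries were within a narrow range of each other and did not overlap, and no sperm library listed the name. PC-3p-1269_4334 was at 1417, 1434 and 1511 CPM in the MII oocytes, 1801, 1799 and 1656 CPM in the PN embryos and 0, 3.46 and 4.07 CPM in sperm. Its PN embryo libraries lay above its MII oocyte libraries, and sperm had at most 10 counts. PC-3p-6867_610 was at 369, 408 and 315 CPM in the MII oocytes, 336, 427 and 353 CPM in the PN embryos and 0 in sperm, and the libraries of eggs and embryos overlapped.

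Further names of the egg and embryo differed in how much of them sperm held. PC-3p-14993_250 was at 338 ± 52.9 CPM in the MII oocytes, 285 ± 28.4 CPM in the PN embryos and 7.14 ± 1.77 CPM in the sperm libraries (SD, n = 3). PC-3p-10568_372 was at 216 ± 13.5, 255 ± 19.2 and 17.5 ± 1.48 CPM, and PC-3p-12228_316 at 208 ± 42.8, 246 ± 38.0 and 4.08 ± 2.83 CPM in the same order. PC-3p-9342_428 was at 131 ± 23.2, 146 ± 22.1 and 26.7 ± 5.71 CPM, the highest sperm level among these names, and PC-3p-28853_122 at 111 ± 9.29 and 136 ± 36.2 CPM with no sperm library listing it. PC-3p-9612_414 had 77, 61 and 53 counts in MII oocyte libraries, which were 196 ± 11.3 CPM, and 56, 78 and 89 counts in PN embryo libraries, which were 120 ± 10.9 CPM (SD, n = 3). The groups did not overlap in CPM, and sperm did not list the name.

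Sperm had its own leading names. PC-3p-835_6880 was at 4045, 4102 and 3975 CPM in sperm, 0, 16.7 and 0 CPM in the MII oocytes and 0, 30.2 and 15.6 CPM in the PN embryos. The MII oocyte level was 5 counts in 1 library, and the PN embryo levels were 21 and 12 counts in 2 libraries. PC-3p-2221_2265 was at 685, 885 and 791 CPM in sperm, 26.2, 0 and 55.3 CPM in the MII oocytes and 52.1, 51.8 and 16.9 CPM in the PN embryos. PC-3p-3016_1576 was at 692, 667 and 699 CPM in sperm, 99.6, 70.2 and 62.2 CPM in the MII oocytes and 35.5, 73.4 and 50.6 CPM in the PN embryos. For each of these names every sperm library was above every other library, and eggs and embryos overlapped.

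Of the sperm names at lower levels, PC-3p-6250_680 was at 157, 201 and 200 CPM in sperm, PC-3p-15096_248 at 65.8, 89.4 and 66.8 CPM and PC-3p-10780_364 at 40.2, 83.1 and 62.7 CPM. No MII oocyte or PN embryo library listed any of them. PC-3p-9265_431 was at 163, 203 and 199 CPM in sperm, 123, 53.5 and 51.9 CPM in the MII oocytes and 78.1, 79.1 and 81.7 CPM in the PN embryos. PC-3p-36832_93 was the exception among the sperm names, at 42.1, 49.6 and 56.6 CPM in sperm, 26.2, 73.5 and 41.5 CPM in the MII oocytes and 28.4, 67.6 and 70.0 CPM in the PN embryos, and its groups overlapped throughout.

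**Figure D4:**
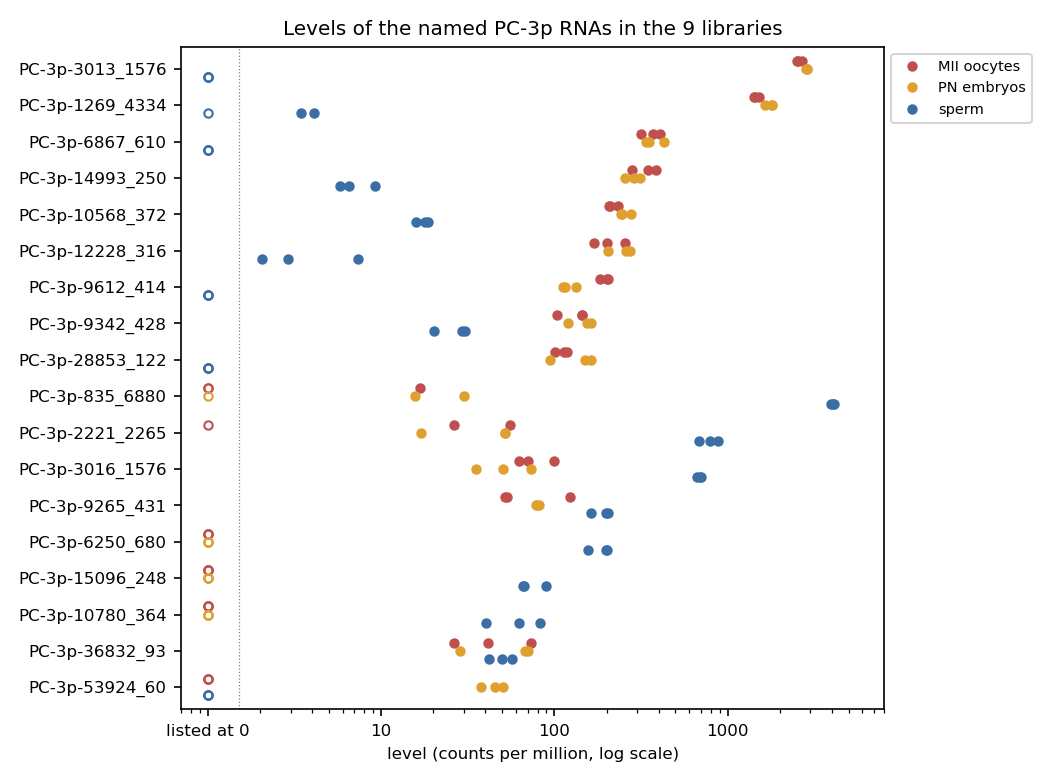
Levels of 18 PC-3p names (y axis) in CPM (x axis, log scale), 1 point per library, with open points at the left for libraries listing 0. The upper 9 names are high in MII oocytes and PN embryos and at most 30.6 CPM in sperm, the next 7 are higher in sperm in every library, PC-3p-36832_93 overlaps in all groups, and PC-3p-53924_60 is seen in PN embryos alone.

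PN embryos were compared with MII oocytes to ask which names differed between the egg and the 1-cell embryo, and 1 PC-3p name was called. Of the 281, 52 passed the filter on low counts and entered the edgeR quasi-likelihood fit, holding 94.7% of PC-3p counts. The 229 others had at most 61 counts in any library. Of the 52, 1 was called at an adjusted p (q) under 0.05 with a log2 fold change of 1 or more in size, against 12.9% of all 587 names tested (11.2% higher and 1.7% lower in PN embryos), and at unadjusted p under 0.05 there were 2. Of the 51 PC-5p names tested, 5 were called. The median log2 fold change was 0.18 over the PC-3p names tested and 0.08 over all names. Of the 43 tested names listed in either group, 33 had an absolute log2 fold change under 1. The summed level of blood cell miRNAs was 837 to 875 CPM in the PN embryos and 166 to 314 CPM in the MII oocytes, with miR-223 at 0 in MII oocytes, and its part in these differences was not tested.

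The called name was PC-3p-53924_60, with 16, 35 and 35 counts in PN embryos and 0 in every MII oocyte and sperm library. This was 44.5 ± 6.29 CPM (SD, n = 3), at least 2.84-fold higher than MII oocytes against 5 counts per library (edgeR q = 0.00378). With the replicate number as a block the call was lost (edgeR q = 0.104). It had passed the filter through PN embryos alone, and 5 further names were listed in every PN embryo library and in no other, each with 5 to 13 counts per library. For PC-3p-9612_414 the PN embryos were lower, at -0.79 ± 0.18 (SE) on the log2 scale. It passed the adjusted p alone (edgeR q = 0.0125) but not the limit on the fold change. Without MII oocyte library 1 its edgeR q was 0.0942, without PN embryo library 3 it was 0.0591, and with the replicate block 0.102. With identical rows of counts tested once its log2 fold change was -0.58 (edgeR q = 0.0599).

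The abundant egg names showed small differences between PN embryos and MII oocytes. The log2 fold change was 0.06 ± 0.06 (SE) for PC-3p-3013_1576 (edgeR q = 0.521) and 0.20 ± 0.13 (SE) for PC-3p-1269_4334 (edgeR q = 0.328). Both had libraries without overlap in CPM, which did not carry over to a call across all names. Of the sperm names, PC-3p-835_6880 had a log2 fold change of 1.66 ± 1.13 (SE) (edgeR q = 0.351), which ran from 0.88 to 7.005 with a library left out, the highest without MII oocyte library 2 and the lowest without PN embryo library 2. PC-3p-2221_2265 had one of 0.43 ± 0.72 (edgeR q = 0.785) and PC-3p-3016_1576 one of -0.59 ± 0.26 (edgeR q = 0.142). None of the 3 was called.

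Sperm and MII oocytes were compared to see which PC-3p RNAs either gamete held. Of the 52 names tested, 49 were called, 14 higher and 35 lower in sperm, where 83% of all names tested were called (42.2% higher and 40.7% lower). The median log2 fold change was -6.36 over the PC-3p names tested and 0.00 over all names. Of the 51 PC-5p names tested, 15 were higher and 30 lower. The libraries of the groups overlapped for 12 of the called names, all lower in sperm. No such count was made over all names tested, so it is no result about PC-3p names. Many names passed the filter through the group in which they were high and so had to differ, among them the 9 tested names listed in sperm alone and the 29 listed in MII oocytes and PN embryos alone, and the counts describe these names without supporting a direction. The division also moved with the filter. With at least 10 counts in 3 libraries, 23 of 53 names tested were higher and 27 lower, and without a filter 33 and 44 of 281. A fit of only these 2 groups gave 15 and 23 of 40. The median log2 fold change over all names was 1.14, 0.00 and 0.77 in these settings. The share of all names called was not counted in them, so the shifts are no result about PC-3p names.

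Among the named PC-3p RNAs, PC-3p-3013_1576 was at least 978-fold, PC-3p-6867_610 at least 137-fold and PC-3p-9612_414 at least 73.9-fold lower in sperm than in MII oocytes (edgeR q = 1.44e-11, 1.23e-08 and 2.32e-08). PC-3p-1269_4334, which sperm did list, had a log2 fold change of -8.93 ± 0.24 (SE) (edgeR q = 1.07e-10), and one of -8.24 without sperm library 1. Names of the egg with more counts in sperm had smaller log2 fold changes, with -3.55 ± 0.16 for PC-3p-10568_372 and -2.22 ± 0.24 for PC-3p-9342_428 (edgeR q = 6.50e-09 and 9.83e-06). In the other direction, PC-3p-835_6880 was at least 257-fold higher in sperm against 5 counts per library (edgeR q = 4.53e-09). Its fitted log2 fold change of 9.64 rested on 5 counts in MII oocyte library 2 and ran from 9.16 to 15.1 with a library left out. PC-3p-2221_2265 followed at 4.93 ± 0.46, PC-3p-3016_1576 at 3.18 ± 0.19 and PC-3p-9265_431 at 1.32 ± 0.26 (edgeR q = 2.94e-06, 7.74e-08 and 9.42e-04). Without MII oocyte library 3 the value of PC-3p-2221_2265 was 5.94, and without MII oocyte library 1 that of PC-3p-9265_431 was 2.12. PC-3p-6250_680 was at least 11.8-fold, PC-3p-15096_248 at least 4.71-fold and PC-3p-10780_364 at least 3.95-fold higher in sperm (edgeR q = 1.91e-05, 1.21e-04 and 6.21e-04). These names had passed the filter through sperm alone, and PC-3p-3013_1576, PC-3p-6867_610, PC-3p-9612_414 and PC-3p-1269_4334 without sperm. Their q values therefore support no direction. PC-3p-36832_93, with 0.17 ± 0.41, was not called (edgeR q = 0.719).

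Sperm and PN embryos were compared in the same fit and shared the sperm libraries with the comparison above. Of the 52 names tested, 49 were called, 14 higher and 35 lower in sperm, where 86.2% of all names tested were called (38.8% higher and 47.4% lower). The median log2 fold change was -7.16 over the PC-3p names tested and -0.52 over all names. Of the 51 PC-5p names tested, 14 were higher and 34 lower. The libraries of the groups overlapped for 2 of the called PC-3p names, again without a count over all names. As above, most called names had passed the filter through the group in which they were high, 9 of the higher names listed in sperm alone and 29 of the lower names not listed in sperm, so these counts support no direction. With at least 10 counts in 3 libraries the division was 23 higher and 28 lower of 53 tested, and without a filter 42 and 65 of 281. The median log2 fold change over all names was 0.67 and -0.20 in these settings, where the share of all names called was not counted. PC-3p-3013_1576 was at least 1074-fold and PC-3p-28853_122 at least 51.2-fold lower in sperm than in PN embryos (edgeR q = 1.27e-11 and 2.17e-07). PC-3p-53924_60 was at least 16.8-fold lower (edgeR q = 9.96e-05). PC-3p-835_6880 had a log2 fold change of 7.98 ± 0.30 (SE) and PC-3p-3016_1576 one of 3.77 ± 0.18 (edgeR q = 1.62e-09 and 1.07e-08), the first being 8.79 without PN embryo library 2. PC-3p-6250_680 was at least 21.9-fold higher in sperm (edgeR q = 6.15e-06). It had passed the filter through sperm alone, and PC-3p-3013_1576, PC-3p-28853_122 and PC-3p-53924_60 without sperm. The q values of these names therefore support no direction.

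The profile of each leading name over the 9 libraries was set beside those of all names, as a description. The points fall by group, so a high correlation says mainly that a name is high and low in the same groups. For PC-3p-3013_1576 the most alike on the log2(CPM + 1) scale were ssc-miR-371-5p (Pearson r = 1.00), of a miRNA cluster known from early embryos, ssc-miR-205_R+1 (r = 1.00) and ssc-miR-105-1_R+3 (r = 1.00), and 92 names exceeded 0.99. ssc-miR-371-5p was at a mean of 1183 CPM in the MII oocytes and 1137 CPM in the PN embryos and at 0 in sperm. For PC-3p-835_6880 the most alike were mdo-miR-34b-5p (r = 0.970), of a family known from sperm and multiciliated cells, mmu-miR-5126_L-3_1ss18CT (r = 0.969) and mmu-miR-146a-5p_R+2 (r = 0.969), and 0 names exceeded 0.99. mdo-miR-34b-5p was at a mean of 0 CPM in the MII oocytes, 8.39 CPM in the PN embryos and 2703 CPM in sperm.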

How the data were processed

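Small RNA of 3 libraries each of MII oocytes, PN embryos and sperm was sequenced by the authors after adapter ligation, PCR and gel purification. The deposited values were estimated counts per listed small RNA, marked as raw in the file headers, not normalized and not always whole. The submitters' processing notes name the build Sscrofa11.1. The aligner, the caller and the limit for listing a name were not given in the sources used here, and coordinates were not used. Groups and replicate numbers came from the sample titles, and 0 further columns of sample values were present.

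Rows of a repeated name (4 PC-3p names, with identical values) were summed. CPM used library totals over all 1313 names, scaled to 1000000. Ratios to a group at 0 used 5 counts per library. These limits divide the mean CPM of the higher group by the mean CPM of 5 counts in the group at 0. Neither counting error nor the spread between libraries enters them, and PCR copies carried no molecular identifiers. Counts were rounded and all 9 libraries fitted together with edgeR 4.0.16 (R 4.3.3): TMM, filterByExpr by group (minimum count 10), quasi-likelihood test and Benjamini-Hochberg adjustment over all 587 names tested in each of 3 contrasts. A call needed an adjusted p (q) under 0.05 and a log2 fold change of 1 or more in size. Standard errors came from each fold change and the F value of its test. Shares and the log2 ratio of PC-3p to PC-5p counts were compared with two-sided exact permutation tests. The fit was tested on simulated data. Between replicate libraries, chi-square per degree of freedom over names with at least 20 counts was 2.20 to 12.7, so none were treated as the same library.

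The 18 PC-3p names described by rule were the 8 with the highest mean CPM in each group and, in each contrast and direction, up to 3 called names with the largest fitted change, a mean over all libraries of 10 CPM or more and no overlap between groups. For each leading name the 3 names with the highest Pearson correlation were added. The set of names, the marker lists and the rules were chosen with earlier results of these data known. Alternatives were DESeq2 1.42.0 (size factors, or its Wald test), library totals alone, other filters, fits of 2 groups, identical rows tested once, the replicate number as a block, and leaving out each library. Sums without the leading names, and calls among names with at least 20 counts in a library, were added after seeing the data.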

Additional observations from a re-analysis of the deposited data

How the results depend on the processing

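For PN embryos against MII oocytes, 3 of 281 PC-3p names tested were called without a filter and 2 of 52 at q alone. With a library left out 1 or 2 were called (2 of 60 without MII oocyte library 1). The replicate block in edgeR left 0 of 52 called, where 2 had an unadjusted p under 0.05. DESeq2 was run without the block and called 1. For sperm against MII oocytes, 77 of 281 were called without a filter, 43 of 52 with the replicate block and 38 of 40 with only the groups compared. For sperm against PN embryos these were 107 of 281, 49 of 52 and 52 of 55. A library left out gave 48 to 54 and 48 to 59 calls, with 51 to 62 names tested. The share of all names called was not counted in these settings, so the counts are no result about PC-3p names. Deviations of same-numbered libraries had a mean r over 541 names of -0.0179, -0.0851 and 0.00478. Differently numbered libraries were not compared, so these values cannot decide whether the numbers pair the libraries. Why calls were lost with the block was not tested. With identical rows tested once, the median log2 fold change over all names in PN embryos against MII oocytes was 0.28 instead of 0.08.

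With a library left out, the share differences ran from 0.119 to 0.165 points (PN embryos against MII oocytes), -0.0334 to 0.00486 (sperm against MII oocytes) and -0.180 to -0.139 (sperm against PN embryos), and the log2 ratio differences from -0.00857 to 0.0799, 0.965 to 1.05 and 0.935 to 1.00. The sign changed without MII oocyte library 1 for the share of sperm against MII oocytes and without MII oocyte library 3 for the ratio of PN embryos against MII oocytes. Names listed numbered 57 to 70 in MII oocytes, 145 to 183 in PN embryos and 72 to 79 in sperm with a library left out. With at least 10 counts they were 33 in MII oocytes and 69 in PN embryos, at 17.3 CPM 52 in PN embryos and 20 in sperm, in every library 26, 45 and 47, and with identical rows counted once 110 in PN embryos.

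Of 54 log2 fold changes of the named PC-3p RNAs, 48 kept sign and call in every alternative run. Some of the 48 were fixed in advance, since both groups were listed at 0 and the main value was 0. These were PC-3p-6250_680, PC-3p-15096_248 and PC-3p-10780_364 in PN embryos against MII oocytes, and PC-3p-53924_60 in sperm against MII oocytes. In PN embryos against MII oocytes, PC-3p-53924_60 lost its call with the replicate block. The other 5 were uncalled throughout and changed sign; the cause was not tested. In PN embryos against MII oocytes, PC-3p-6867_610 was at 0.0371 with library totals alone, 0.181 with identical rows tested once and -0.143 to 0.120 with a library left out, and PC-3p-9265_431 at 0.0149, 0.168 and -0.264 to 0.670. With a library left out, PC-3p-9342_428 ran from -0.0632 to 0.294 and PC-3p-2221_2265 from -0.114 to 1.29. In sperm against PN embryos, PC-3p-36832_93 was at 0.121 with DESeq2 size factors, 0.146 with the DESeq2 Wald test, 0.127 without a filter, 0.0600 with at least 10 counts in 3 libraries, 0.0470 with the replicate block and -0.195 to 0.319 with a library left out. Depth limits MII oocytes most: 5 counts there were 13.1 to 17.3 CPM.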
